A study of Mus musculus with 10 samples.

Results

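The genes described here are the mouse osteocalcin copies Bglap, Bglap2 and Bglap3 together with Spp1, Runx2, Alpl, Sp7 and Ibsp, genes in common use as markers of bone-forming cells. They were measured in C2C12 cells, a mouse myoblast line, that had received either a synthetic mimic of the microRNA miR-27a-3p or a scrambled control RNA (scramble). They were found on the array as the non-control probes that carry these gene names in the deposited scanner files, which gave 8 of 34650 gene names and 14 of 55681 probes. The members were chosen by their measured differences between mimic and scramble and by the marks for detection, which were already known. These differences are therefore given as a description, with no test.

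Osteocalcin is a small secreted protein of mature osteoblasts that binds calcium and the mineral of bone once vitamin K-dependent carboxylation has modified its glutamic acid residues. The mouse carries several near-identical osteocalcin genes side by side. Spp1 encodes osteopontin, a secreted phosphoprotein that binds integrins and CD44 and is made by many cell types, osteoblasts and macrophages among them. Runx2 and Sp7, also called osterix, are the transcription factors that set the osteoblast fate. Alpl, the tissue-nonspecific alkaline phosphatase, breaks down the mineralisation inhibitor pyrophosphate, and Ibsp encodes bone sialoprotein. C2C12 cells form myotubes when serum is withdrawn and are known to turn towards an osteoblast program when given BMP2, which is why bone genes in this line draw attention.

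Per the labels, cells of 1 line were transfected with a Lipofectamine reagent and 150 nM of the mimic (6 samples) or of the scramble (4 samples), and all were collected after 72 h. The labels put transfection efficiency at about 60%, so each RNA came from a mixture of transfected and untransfected cells. They name growth medium with fetal bovine serum and no BMP or other bone-inducing agent. No untransfected cells were analysed here, and every difference is mimic minus scramble. In bulk RNA, a change in the share of cells that make a transcript and a change in its amount per cell cannot be told apart.

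RNA was hybridised to 1-colour Agilent arrays. The 10 files came from 1 slide with 5 array positions, each scanned 2 times. Mimic arrays 1, 2 and 3 hold the replicate pairs 1 with 4, 2 with 5 and 3 with 6, and scramble arrays 1 and 2 hold the pairs 1 with 3 and 2 with 4. The software marked 21 to 75 of the same spots as non-uniform in both files of a pair, and none of the same spots in the 40 other pairings of files. The labels call the replicates independent transfections, which the positions do not bear out. Files of a position were averaged, which left n = 3 mimic arrays and n = 2 scramble arrays. Of 59305 non-control spots, 27.04% to 35.3% per file were well above background, a mark set by the scanner software, and 0 were saturated. Myoblast markers were present: Myod1, Des, Cdh15, Chrna1, Itga7 and Cdh2, 6 of the 8 listed, were bright enough to be tested. Of the rest, Myf5 was well above background in at most 1 file by any probe, and Pax7 in no file.

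The transfected microRNA and its close relative miR-27b-3p are shown because they carry the same seed, the bases 2 to 8 that pair with target transcripts (capitals). The sequences are those of RefSeq for GRCm38.p6, at chr8:84208727-84208747 and chr13:63300760-63300780, both on the plus strand.

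mmu-miR-27a-3p: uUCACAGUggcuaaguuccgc
mmu-miR-27b-3p: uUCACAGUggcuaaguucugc

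The osteocalcin results turn on which copy a probe reads, so 3 of the 6 osteocalcin probes are shown as the scanner files give them, each 60 bases long. The Bglap2 probe lies at chr3:88181822-88181881, the Bglap3 probe at chr3:88172673-88172732 and the Bglap probe at chr3:88188307-88188366 (mm9, minus strand). Capitals mark the 25 bases over which the Bglap2 and Bglap3 probes align.

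Bglap2 probe: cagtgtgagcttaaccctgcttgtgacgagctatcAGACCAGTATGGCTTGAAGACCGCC
Bglap3 probe: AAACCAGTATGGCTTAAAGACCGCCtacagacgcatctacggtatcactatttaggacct
Bglap probe: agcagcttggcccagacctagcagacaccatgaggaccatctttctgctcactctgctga

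In that stretch 23 bases were identical, and the Bglap3 probe differed by G37A and G51A, counted from the 5′ end of the Bglap2 probe with the Bglap2 base first. The longest run shared by both was 13 bases. No probe elsewhere on the array, and no other osteocalcin probe, shared a run of 20 bases with any of the 6. The files list transcripts of both Bglap and Bglap2 for the Bglap2 probe, of Bglap3 alone for the probe at transcript position 417, and of both Bglap and Bglap3 for the probe at position 550. The probe at position 22 of Bglap lists Bglap alone. Signal on the probes with more than 1 listed copy cannot be assigned to a single gene, and cross-hybridisation between copies this alike was not tested. Whether a probe lies in a coding exon or in an untranslated region was not analysed here.

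On 4 of the 6 osteocalcin probes, all 6 mimic files read above all 4 scramble files. On 1 of these 4, the Bglap probe at position 22, the signal lay near the limit of detection. Of all genes tested, 12% were likewise higher in every mimic file, and nothing is read from the count, since this contrast chose the members. Levels are log2 processed signals, set to 0 at the 75th percentile of those probes that cleared background in every file. On the Bglap2 probe mimic arrays 1, 2 and 3 read -1.41, -1.40 and -1.23, and scramble arrays 1 and 2 read -3.95 and -3.82. The groups did not overlap, and the spread within a group was small beside the distance between them. The group means were -1.35 ± 0.10 (SD, n = 3) and -3.88 ± 0.09 (SD, n = 2), a difference of 2.54 ± 0.15 (SE), or 5.80-fold. Each SE in the text is the moderated SE of limma. It draws on the spread of all probes or genes fitted, not on the SDs shown alone. In processed signal, the lowest, median and highest mimic files read 803, 1111 and 1303, and the 4 scramble files read 168, 170, 151 and 124. All 10 files were well above background, so osteocalcin was measurable in both groups.

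The probe that lists Bglap3 alone gave the same order. The mimic arrays read -1.64, -1.66 and -1.73 and the scramble arrays -4.04 and -3.86. The means were -1.68 ± 0.05 (SD, n = 3) and -3.95 ± 0.13 (SD, n = 2), and the difference was 2.27 ± 0.14 (SE), or 4.82-fold. Here too every file was well above background and no mimic file came near a scramble file: mimic signals ran from 698 to 1011 with a median of 889, and scramble signals were 169, 146, 133 and 137.

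The probe at position 550, at chr3:88172540-88172599 and listed for Bglap and Bglap3, cleared background in 6 of 6 mimic files and 0 of 4 scramble files. Its levels were -2.22, -2.20 and -1.85 against -4.91 and -4.70. The scramble side did not clear background, so a bound was taken. It set the mimic mean against the higher of the dim probe's own level and the lowest level well above background on each scramble array. This bound was 6.54-fold on the processed signal, beside 6.58-fold as measured, and does not hold under other processing. Measured means were -2.09 ± 0.21 (SD, n = 3) and -4.81 ± 0.14 (SD, n = 2). With normexp background correction, which compresses dim signals through its offset, the difference was 1.68, or 3.20-fold.

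The Bglap probe at position 22 lay near the limit of detection. Its signals were 76.0, 80.8, 84.0, 51.8, 33.1 and 56.9 in mimic replicates 1 to 6 and 19.0, 23.9, 13.3 and 17.5 in scramble replicates 1 to 4. Every mimic file read above every scramble file. Only mimic replicate 1 was well above background, while the software's weaker mark, a signal positive and significant against background, was set in 6 of 6 mimic and 1 of 4 scramble files. In 3 files its value was a surrogate that the software writes in place of a signal not above background. Its scans on 1 array differed by up to 1.07 on the log2 scale. No fold is given, since the bound was under 1.

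The 2 remaining osteocalcin probes gave no level in either group. The other Bglap probe (transcript position 250, chr3:88187792-88187851) read 13.1 to 29.8 and the other Bglap3 probe (position 68, chr3:88173515-88173574) read 12.2 to 28.9. Neither was well above background in any file, and in 8 and 9 of the 10 files the value was the surrogate that the software writes in place of a signal not above background. So the Bglap3 probe at position 417 was well above background in every file and the probe at position 68 in none. Which copies gave the signal at position 417 was not tested. Why the probes of a copy differ was not tested.

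**Figure D1:**
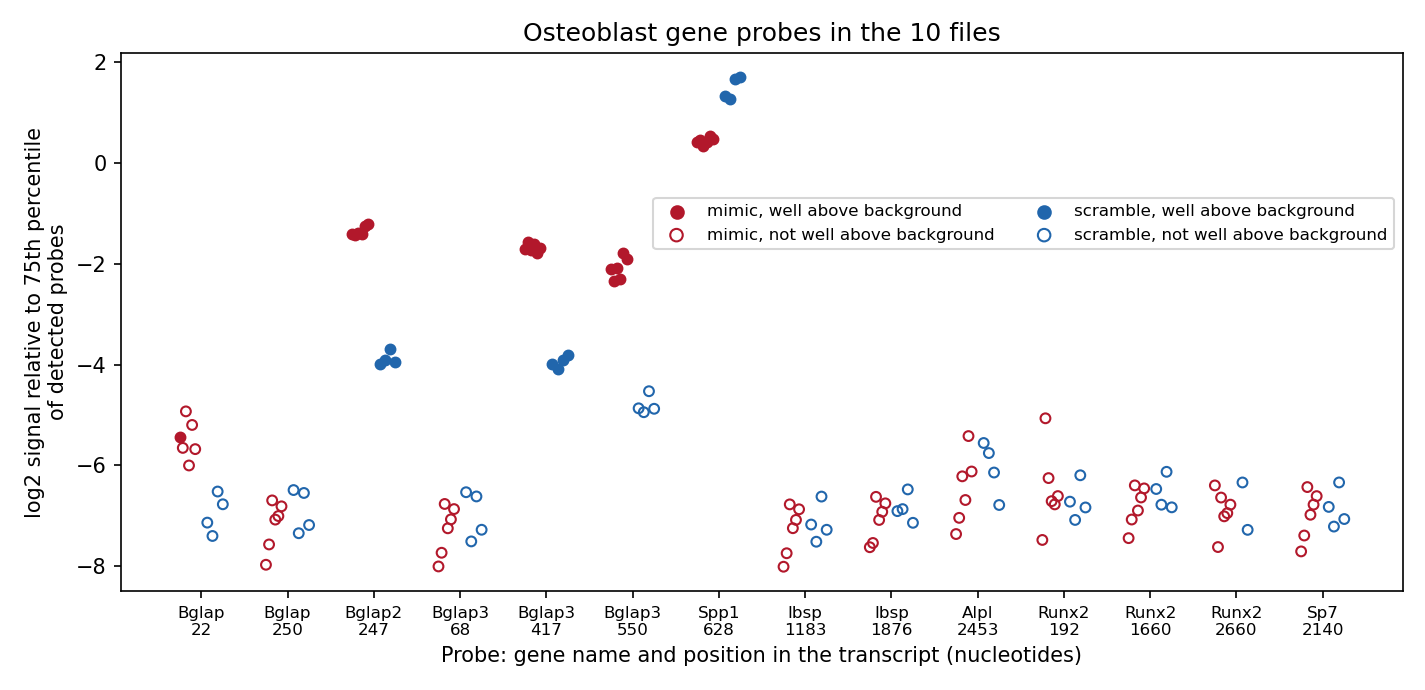
Level of each of the 14 probes in each of the 10 files, as log2 signal with 0 at the 75th percentile of detected probes. Red points are mimic files and blue points scramble files. Filled points were well above background and open points were not, and the marked Runx2 spots of scramble array 2 are left out. The Bglap2 probe and the Bglap3 probes at positions 417 and 550 sit higher in mimic files, Spp1 sits lower, and the probes of Ibsp, Alpl, Runx2 and Sp7 stay at the background level in both groups.

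Over the 5 arrays, the difference in level between the Bglap2 probe and Bglap3 position 417, both above background in every file, had an SD of 0.18. The first and the second scan gave differences of 2.49 and 2.58 for the Bglap2 probe and of 2.21 and 2.33 for Bglap3 position 417. In the deposited value table they were 2.65 and 2.38. Over 17 alternative settings, of which 12 can move a probe's value, the difference ran from 2.06 to 2.69 for the Bglap2 probe, from 1.76 to 2.43 for Bglap3 position 417 and from 1.68 to 2.88 for position 550. The normexp correction gave the lowest value for each.

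Osteopontin differed in the opposite direction. Spp1 was read by 1 probe (chr5:104868502-104868561, mm9, plus strand, transcript position 628) that was well above background in all 10 files. The mimic arrays read 0.44, 0.37 and 0.51 and the scramble arrays 1.30 and 1.69. Every mimic file lay below every scramble file, and the scramble arrays differed from each other by more than the mimic arrays did. The means were 0.44 ± 0.07 (SD, n = 3) and 1.49 ± 0.28 (SD, n = 2), a difference of -1.05 ± 0.17 (SE), so that scramble exceeded mimic 2.07-fold. Mimic signals ran from 2832 to 4490 with a median of 3814, and scramble signals were 6714, 7004, 5431 and 6224. The Spp1 difference was -1.07 and -1.04 in the first and the second scan and -1.003 in the deposited value table. Without scramble array 1 the difference was -1.25 and without scramble array 2 it was -0.85.

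**Figure D2:**
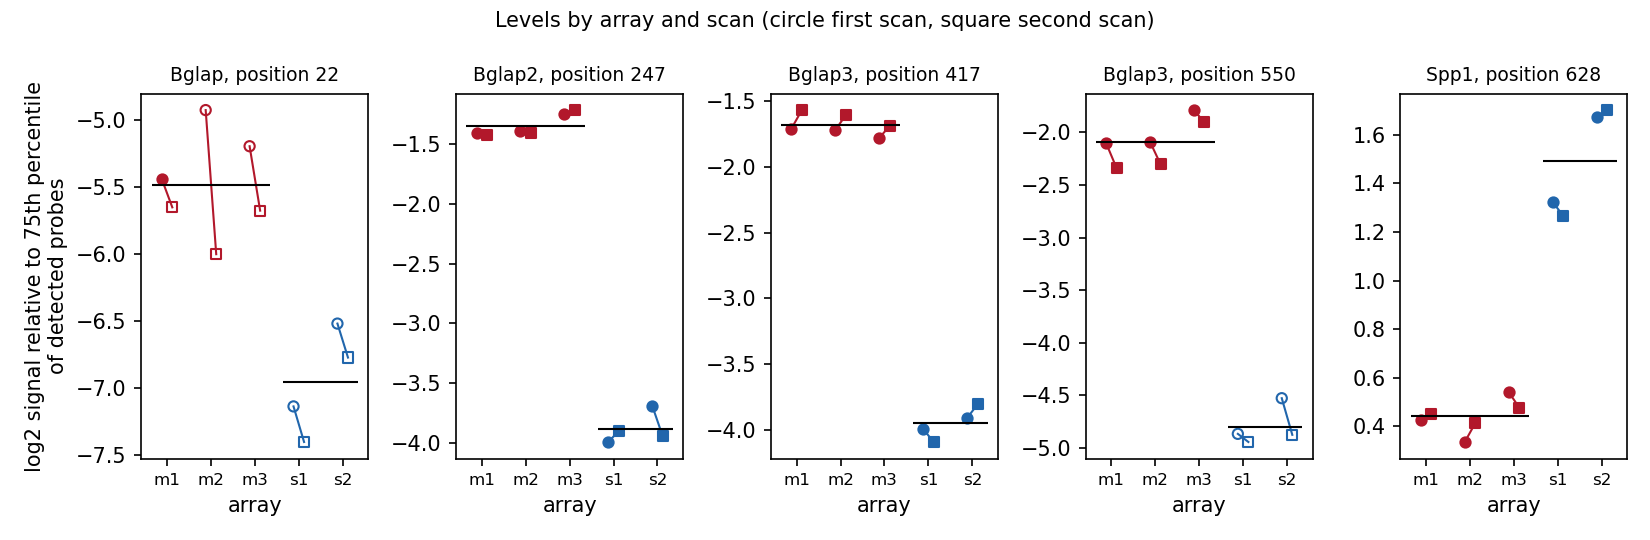
Level of 5 probes on each array, with mimic arrays m1, m2 and m3 in red and scramble arrays s1 and s2 in blue. Circles are the first scan and squares the second, joined by a line for each array. Filled symbols were well above background. Black bars are group means of the array averages, and each panel has its own vertical range. The scans of an array lie close together for Bglap2 and Spp1 and up to 1.07 apart for the dim Bglap probe.

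Across the whole table, 676 of 13138 genes passed limma at an adjusted p threshold of 0.05, or 5.15%, with 368 higher (2.8%) and 308 lower (2.34%). Of the 8 members, 3 passed the filter on dim probes, which asks for a probe well above background in at least 4 of 10 files. These were Bglap2, Bglap3 and Spp1, and all 3 were called, 2 higher and 1 lower. Nothing is read from this count, since the same contrast chose the members and a probe that is bright in 1 group enters the filter through that group. By files, 4 of the 14 probes were higher in every mimic file, the dim Bglap probe at position 22 among them. Of the others, 1 was lower in every one and 9 overlapped. For comparison, 14.8% of all genes tested were lower in every mimic file. Without mimic array 1, 2 or 3 the whole table gave 47, 79 and 138 calls. Bglap2 and Bglap3 were called in each while Spp1 was not. Nothing is read from these member calls, since the same contrast chose the members. Leaving out either scramble array left a lone one. The number of calls is not given here for those fits, and nothing is read from it.

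**Figure D3:**
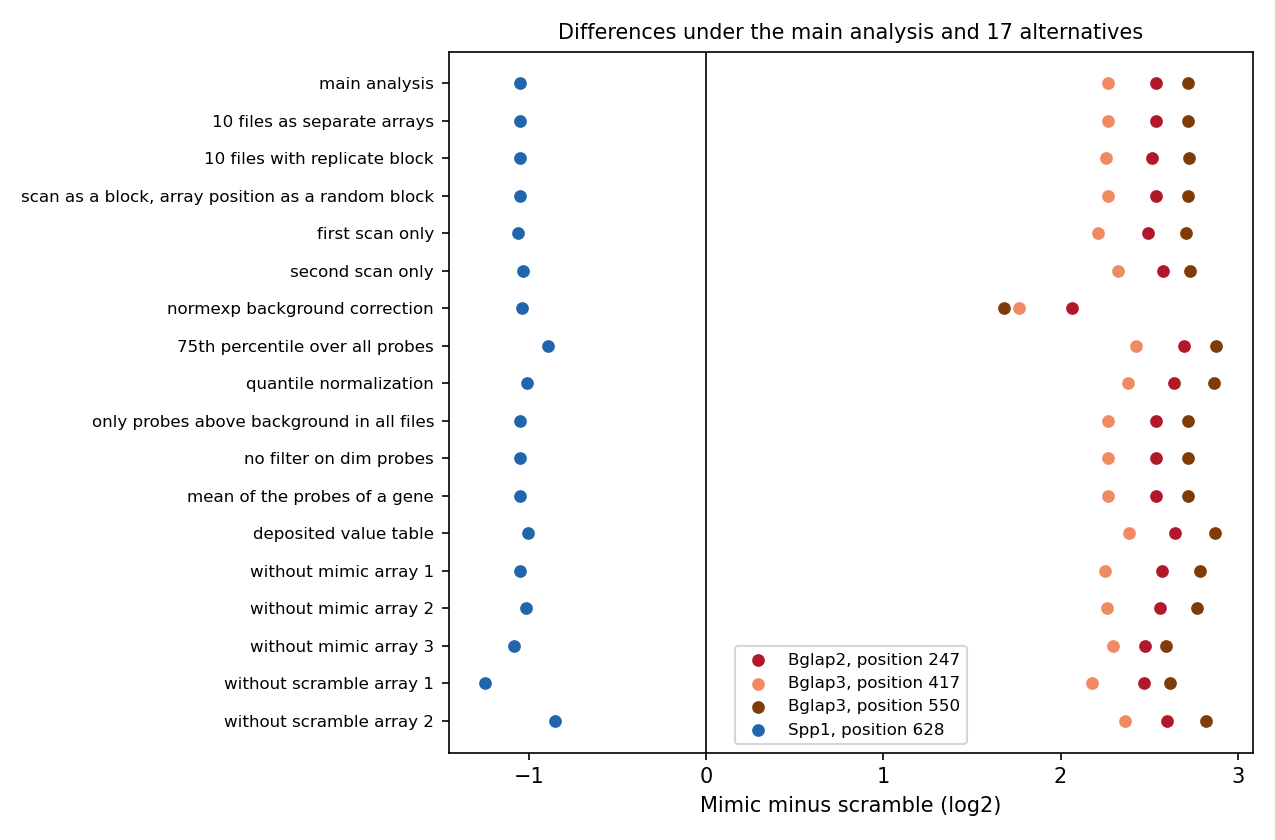
Mimic minus scramble, in log2, for the 4 member probes that passed the filter on dim probes, under the main analysis and 17 alternatives (rows). Osteocalcin probes stay between 1.68 and 2.88 and Spp1 between -1.25 and -0.85. No value changes sign.

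The osteoblast transcription factors were not detected. Runx2 has 3 probes. The probe at position 192 read 16.6 to 77.9 and the probe at position 1660 read 16.8 to 33.2, with 0 of 10 files well above background for either. The third probe, at position 2660 of a non-coding Runx2 transcript (chr17:44633034-44633093), read 13.2 to 39.2 except on scramble array 2, where the spot read 1769 and 874 in its scans and was marked non-uniform in both, so that it was left out. Sp7, read by 1 probe (chr15:102187692-102187751), gave 14.3 to 29.8 with the surrogate value in all 10 files. For scale, the lowest signal well above background was between 59.5 and 122 in these files.

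The mineralisation markers were not detected either. Alpl, at chr4:137297658-137297716, read 17.3 to 72.1, with the weaker mark of significance in 2 mimic and 2 scramble files. The Ibsp probes read 12.2 to 24.9 at position 1183 and 13.5 to 26.99 at position 1876. For Runx2, Sp7, Alpl and Ibsp the groups overlapped on every probe, and values at the surrogate have no order. Not detected says that signal did not clear background on these arrays, not that the transcripts were absent. Of the 8 genes, the osteocalcin copies and Spp1 were those with an unmarked spot well above background.

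Promoter windows, the 250 bases before the annotated start in RefSeq for GRCm38.p6, are shown for Bglap, Spp1 and Runx2 because these hold the core motif bound by Runx factors (ACCACA, in capitals, searched on both strands). Each is written along the gene's own strand. They lie at chr3:88384467-88384716 (minus strand), chr5:104434861-104435110 (plus) and chr17:44814628-44814877 (minus).

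Bglap promoter: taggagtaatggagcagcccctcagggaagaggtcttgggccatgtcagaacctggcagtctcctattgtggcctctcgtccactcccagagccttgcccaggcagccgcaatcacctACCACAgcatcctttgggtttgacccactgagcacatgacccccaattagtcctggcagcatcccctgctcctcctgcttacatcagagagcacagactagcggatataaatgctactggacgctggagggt
Spp1 promoter: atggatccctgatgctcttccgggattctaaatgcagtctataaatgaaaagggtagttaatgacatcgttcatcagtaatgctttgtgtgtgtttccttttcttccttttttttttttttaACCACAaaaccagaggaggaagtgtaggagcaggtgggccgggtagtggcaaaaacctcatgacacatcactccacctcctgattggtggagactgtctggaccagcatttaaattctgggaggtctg
Runx2 promoter: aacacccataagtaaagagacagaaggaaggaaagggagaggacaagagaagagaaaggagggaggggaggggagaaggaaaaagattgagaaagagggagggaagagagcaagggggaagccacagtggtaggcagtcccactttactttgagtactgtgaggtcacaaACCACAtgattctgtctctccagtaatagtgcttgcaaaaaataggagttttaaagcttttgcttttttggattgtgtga

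Windows were given for 6 of the 8 members, 10 windows in all; there was none for Bglap2 or Sp7. ACCACA began at -132 from the start of Bglap, at -128 for Spp1 and at -80 for Runx2, and the longer AACCACA, which contains it, began 1 base further out for Spp1 and Runx2 (-129 and -81). Of 32851 windows of the same length, 14.0% held ACCACA and 4.40% held AACCACA. The windows of Bglap3, Alpl and Ibsp and the second window of Spp1 held neither. A TATA box sequence, TATAAA, began at -27 in Bglap, -28 in Ibsp, -211 in Spp1 and -192 in a window of Alpl, and 12.4% of all windows held it. A match is a run of letters, and binding was not measured.

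The other genes of the osteoblast pathways came from lists of 142 genes, put together with earlier results of these data known, of which 86 were tested. Of these 4 rose and 4 fell, or 9.30% against 5.15% of all genes, and their median difference was 0.04 against -0.05 for all genes. Adjusted p-values are from limma over the 13138 genes in the main analysis, and over the genes tested there in each alternative. Counts at an unadjusted p under 0.05 are given below without the share over all genes, so no excess is read from them. By limma, Dcn had an unadjusted p of 0.048 and an adjusted p of 0.19. Without mimic array 1, 2 or 3, 1, 1 and 2 of them were called.

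Regulators of the osteoblast fate stayed mostly below the threshold. Among 30 transcription factors and cofactors, 19 were tested, 0 rose and 1 fell under limma, with a median of -0.06. At an unadjusted p under 0.05 the counts were 2 higher and 4 lower. Twist2, a basic helix-loop-helix protein known to restrain Runx2, fell from -2.35 ± 0.09 (SD, n = 2) to -3.13 ± 0.06 (SD, n = 3), a difference of -0.77 ± 0.14 (SE, adjusted p = 0.037). Twist2 was past the threshold in 10 of 17 alternatives. The call was lost in the second scan alone (adjusted p = 0.052), with the percentile over all probes (0.064) and without a filter on dim probes (0.38). It was also lost without mimic array 1, 2 or 3 (0.21, 0.15 and 0.13) and without scramble array 2, which left a lone scramble array. The Runx partner Cbfb was at 0.37 ± 0.34 and Msx2 at 0.43 ± 0.14, both short of the threshold (adjusted p = 0.52 and 0.14). Of the list, 10 were well above background in no file, among them Dlx5, Twist1, Runx3 and Osr1.

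Genes of the bone matrix and its mineralisation held both directions. Of 31 listed, 22 were tested, with 1 higher, 2 lower and a median of 0.33, which was also the median with Omd at its bound. At an unadjusted p under 0.05 the counts were 9 higher and 2 lower, with no share over all genes to set beside them. Enpp1, which makes the mineralisation inhibitor pyrophosphate, fell from -1.54 ± 0.004 (SD, n = 2) to -2.79 ± 0.02 (SD, n = 3), a difference of -1.25 ± 0.13 (SE, adjusted p = 0.0095). Mgp, the matrix Gla protein that keeps soft tissue from calcifying, fell by 1.13 ± 0.14 (adjusted p = 0.014). Omd, osteomodulin, a keratan sulphate proteoglycan of bone, was well above background in 4 of 6 mimic and 0 of 4 scramble files, and its level was higher, at least 1.33-fold (adjusted p = 0.012, and 0.11 with normexp). Enpp1 and Mgp were each past the threshold in 13 of 17 alternatives and Omd in 11 of 16. Without a filter on dim probes the calls of Enpp1, Mgp and Omd were lost (adjusted p = 0.15, 0.19 and 0.13). The main collagen of bone, Col1a1, was at 0.55 ± 0.20 (adjusted p = 0.17) and the crosslinking enzyme Lox at 0.67 ± 0.15 (adjusted p = 0.067). The osteoblast and osteocyte genes Ifitm5, Dmp1 and Mepe were among 7 of the list well above background in no file.

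The lists around osteocalcin and osteopontin held 1 called gene, Mgp, which is also in the bone matrix list. Of 10 genes for the maturation and receptors of osteocalcin, 7 were tested and only Mgp, itself a vitamin K-dependent protein, was called. Ggcx, the gamma-carboxylase, was at -0.19 ± 0.27, Vkorc1, which recycles vitamin K, at 0.06 ± 0.17 and Furin, a convertase that cleaves precursor proteins, at 0.08 ± 0.19 (adjusted p = 0.67, 0.83 and 0.81). The reported osteocalcin receptors Gprc6a and Gpr158 were above background in no file. Of 16 receptors and modifying enzymes of osteopontin, 9 were tested and 0 were called by limma, with 1 higher at an unadjusted p under 0.05. The osteopontin receptor Cd44 was at -0.07 ± 0.17 (adjusted p = 0.81), and the integrin subunits Itgav and Itgb3 were at -0.00 ± 0.20 and 1.11 ± 0.24 (adjusted p = 0.999 and 0.061).

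The chromosomal neighbours gave a further comparison. In the RefSeq order, Spp1 lies in a cluster with Dspp, Dmp1, Ibsp and Mepe, which encode related integrin-binding proteins of mineralised tissue, beside Sparcl1 and Pkd2. Dspp, Dmp1 and Mepe were well above background in no file. Sparcl1, a matricellular protein, was well above background in 4 of 4 scramble and 0 of 6 mimic files. On the processed signal it was at least 3.75-fold lower (adjusted p = 0.0086). Its fitted difference was -3.56, and -1.86 with normexp (adjusted p = 0.027), which falls just short of that bound. Pkd2, a cation channel, was at 0.24 ± 0.21 and the neighbour Thoc2l at 0.50 ± 0.24 (adjusted p = 0.50 and 0.25). Of the 8 protein-coding genes flanking the osteocalcin copies, a set added after the values were seen, 5 were tested and 0 passed limma's threshold (2 lower at an unadjusted p under 0.05). Pmf1, which lies next to Bglap, was at -0.07 ± 0.14 (adjusted p = 0.78). Smg5, a factor of nonsense-mediated decay, was at -0.65 ± 0.21, Glmp at -0.44 ± 0.28 and Lmna, which encodes the A-type lamins of the nucleus, at -0.00 ± 0.19 (adjusted p = 0.13, 0.36 and 0.99). Slc25a44, well above background in 2 of 6 mimic and 3 of 4 scramble files, was at -0.81 ± 0.20 (adjusted p = 0.083).

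Signals upstream of osteoblast genes had 2 called genes. Of 21 BMP inputs and targets, 13 were tested and Bmp4, a ligand of the pathway, rose from -1.38 ± 0.07 (SD, n = 2) to 0.01 ± 0.14 (SD, n = 3), by 1.40 ± 0.15 (SE, adjusted p = 0.010). Bmp4 was past the threshold in 14 of 17 alternatives, and its call was lost without a filter on dim probes (adjusted p = 0.14). The BMP target genes Id1 and Id3 were at -0.46 ± 0.16 and -0.53 ± 0.19 (adjusted p = 0.16 and 0.17) and Id2 at 0.50 ± 0.14 (adjusted p = 0.097). Bmp2, Bmp6 and Bmp7 were well above background in no file. Of 17 hormone and Wnt inputs, 7 were tested and Ghr, the growth hormone receptor, rose by 0.69 ± 0.13 (adjusted p = 0.044). Ghr was past the threshold in 10 of 17 alternatives. Among others, the Ghr call was lost within each scan alone (adjusted p = 0.053 and 0.061) and without a filter on dim probes (0.45). It was also lost without scramble array 2, which left a lone scramble array.

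Of 11 genes for alkaline phosphatases and pyrophosphate, 6 were tested. Beside Enpp1, Nt5e, the surface enzyme CD73 that releases phosphate from AMP, rose by 1.35 ± 0.19 (adjusted p = 0.019). Nt5e was past the threshold in 12 of 17 alternatives. Among others, its call was lost without a filter on dim probes (adjusted p = 0.18) and without scramble array 2, which left a lone scramble array. The intestinal and embryonic phosphatase genes Alpi, Akp3 and Alppl2 were above background in no file, as Alpl was. Of 7 genes that couple osteoblasts to osteoclasts, 3 were tested and 0 called by limma: Csf1 at -0.23 ± 0.14, Efnb2 at 0.58 ± 0.16 and Ephb4 at -0.02 ± 0.23 (adjusted p = 0.35, 0.10 and 0.97). At an unadjusted p under 0.05 there was 1, Efnb2. Tnfrsf11a had a probe well above background in all 10 files but was not tested, since testing needed a value on every array.

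**Figure D4:**
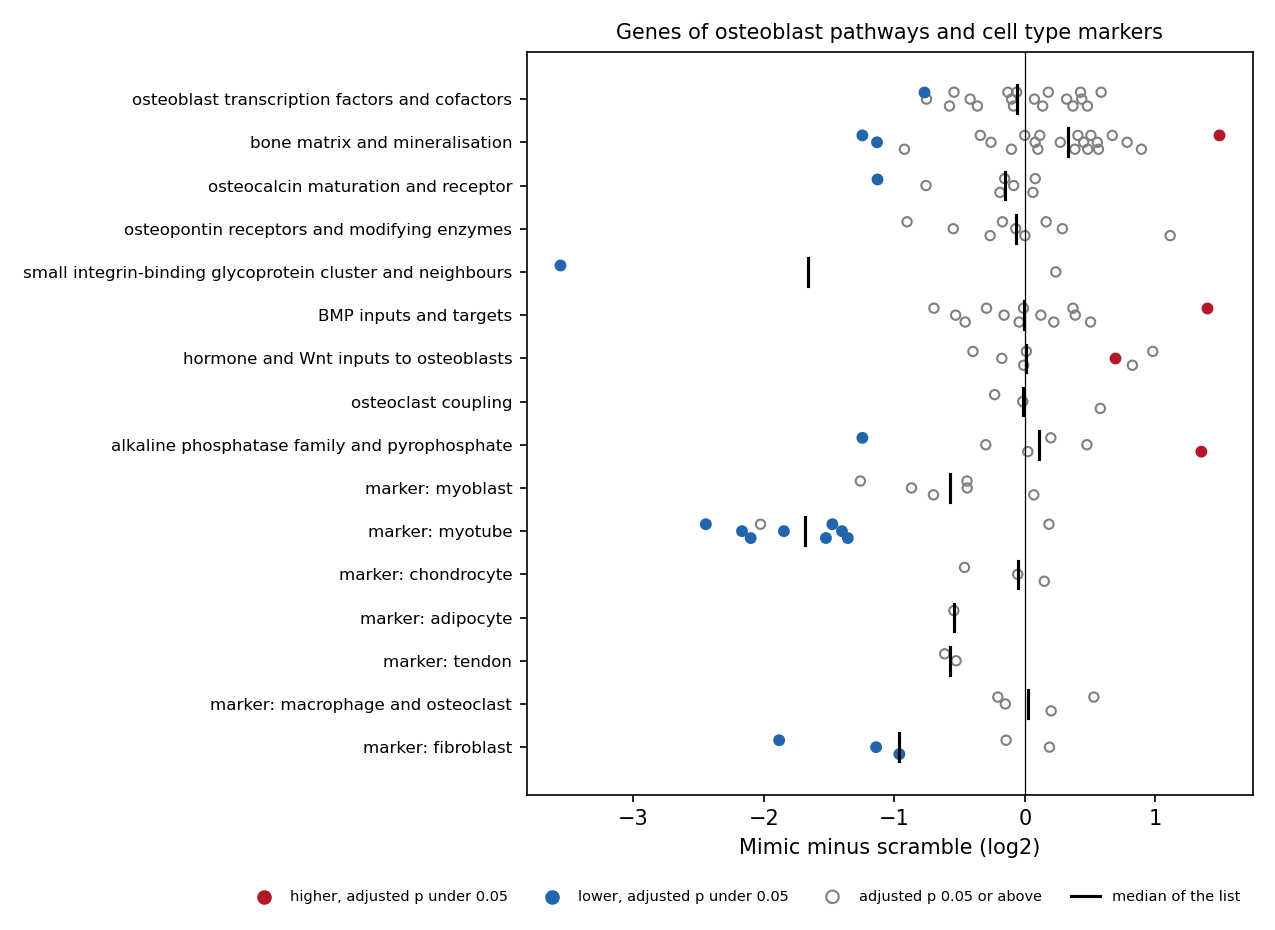
Mimic minus scramble, in log2, for each tested gene of the osteoblast lists and of the marker lists of other cell types. Filled points passed limma's threshold, red higher and blue lower, open points did not, and black bars are list medians. The fitted values of Sparcl1 and Omd rest on 1 group below background. Points of the osteoblast lists lie on both sides of 0, while 8 of 10 myotube markers are lower.

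Markers of other cell types were read beside these results, and their part in them was not tested. Of the 10 myotube markers, all tested, 8 fell and 0 rose, with a median of -1.69 and list means of -0.38 to 0.08 on mimic arrays and 1.46 to 1.62 on scramble arrays. By smallest p these were led by Tnnt1 (-1.36 ± 0.13), Myog (-2.10 ± 0.21), Tnnc1 (-2.17 ± 0.23) and Actc1 (-1.52 ± 0.18), with adjusted p of 0.0090, 0.0092, 0.0095 and 0.012. Of 8 myoblast markers 6 were tested and 0 called by limma (5 lower at an unadjusted p under 0.05), with a median of -0.57 and means of 0.94 to 1.01 against 1.45 to 1.73. Of 7 fibroblast markers 5 were tested and 3 fell, with list means of -2.73 to -2.47 against -2.02 to -1.55. Pdgfrb, a PDGF receptor, fell by 1.14 ± 0.13 (adjusted p = 0.012). The calls of Fap and Pdgfra rest on dim probes. Fap, at -1.88 ± 0.35 (adjusted p = 0.042), was well above background in 3 of 6 mimic and 4 of 4 scramble files and was past the threshold in 5 of 16 alternatives. Pdgfra, at -0.96 ± 0.16 (adjusted p = 0.030), was well above background in 1 of 6 mimic and 3 of 4 scramble files and was past the threshold in 6 of 16 alternatives, with -0.38 under normexp and 1.28 in the deposited value table. S100a4 was at -0.14 ± 0.14 and Lum at 0.19 ± 0.40 (adjusted p = 0.54 and 0.78).

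Markers of cartilage, fat, tendon and blood-derived cells were in part measurable. Well above background in no file were 10 of 13 cartilage genes, Col2a1, Col10a1 and Comp among them, 6 of 9 fat genes, Adipoq and Plin1 among them, 3 of 5 tendon genes, including Tnmd, and 7 of 11 macrophage and osteoclast genes, including Ctsk, Acp5, Adgre1 and Ptprc. Of the cartilage, fat, tendon and macrophage lists 3, 1, 2 and 4 genes were tested and 0 were called by limma. The fat gene Lpl had a probe well above background in all 10 files but was not tested, since testing needed a value on every array. At an unadjusted p under 0.05 these lists held 0, 1, 2 and 1. Sox9 and Sox5, transcription factors of cartilage, cleared background in all 10 files and were at 0.15 ± 0.14 and -0.46 ± 0.21 (adjusted p = 0.52 and 0.23). Acan, the cartilage proteoglycan aggrecan, cleared it in 2 mimic and 2 scramble files and was at -0.06 ± 0.23 (adjusted p = 0.89). Pparg, the nuclear receptor of fat cell formation, and the tendon factors Scx and Egr1 cleared background in all 10 files and were at -0.54 ± 0.14, -0.53 ± 0.14 and -0.61 ± 0.15 (adjusted p = 0.088, 0.098 and 0.074). Of the macrophage list, Cd68, Cd14 and Itgam cleared background in all 10 files and Csf1r in 9. They were at 0.53 ± 0.14, 0.20 ± 0.20, -0.15 ± 0.17 and -0.21 ± 0.29 (adjusted p = 0.095, 0.54, 0.59 and 0.67).

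Finally, the genes whose levels over the 5 arrays lay nearest to those of the members were sought among 10564 genes well above background in all files, by the root mean square difference of mean-centred log2 levels. Nearest to the Bglap2 probe were LOC102642868 (0.18), Stmn4 (0.19), Il33 (0.20), Prl2c1 (0.22) and Gpr137b (0.27), whose mimic minus scramble differences were 2.22, 2.18, 2.40, 2.96 and 2.42. Il33 encodes an alarmin of the interleukin-1 family and Prl2c1 a proliferin of the prolactin family. Nearest to Spp1 were Qdpr (0.042), Il1r1 (0.046), Ech1 (0.052), Eml4 (0.053) and Slf2 (0.061), with differences between -1.12 and -0.98. These lists describe likeness on 5 arrays and nothing more.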

How the data were processed

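Values in the deposited scanner files are linear spot intensity: the processed signal, after subtraction of background and detrending, from Agilent Feature Extraction 12.0.0.7, per the file headers, with probe positions on mm9. Version 10.7.3.1 is named in the submitters' processing notes. Control spots and spots marked as outliers were left out, and spots of a probe were averaged. Each file's log2 signal was reduced by its 75th percentile, taken across the 13029 probes that cleared background in every file. Probes well above background in at least 4 files were kept (16786 of 55681). The brightest probe stood for a gene, which gave 13188 genes, of which 13138 had a value on every array. For 31739 probes, names came from RefSeq (GRCm38.p6), by accession or symbol, and for the rest from the files; microRNA and promoter sequences are from RefSeq for the same build.

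The 2 files of an array position were averaged. The comparison used limma 3.58.1 under R 4.3.3 (lmFit, eBayes, 3 residual and 2.93 prior degrees of freedom, Benjamini-Hochberg adjustment, threshold 0.05), and the procedure was tested on simulated data. The p-values measure the spread between 5 arrays, which may be technical, and the number of arrays limits the precision. The members and lists were chosen with earlier results of these data known. The text names every member, from each list up to 4 called genes by smallest p and any gene of a list with 5 or fewer tested, and the 5 genes nearest in level; the other list genes named were chosen after their values were seen. The deposited value table, intensity on a linear scale not centred, followed the order of the processed signal (Spearman correlation 0.999); its columns had medians of 192.1, 275.6, 260, 214.7, 252.7 and 294.2 (mimic replicates 1 to 6) and 245, 244.8, 202.9 and 214.9 (scramble replicates 1 to 4). In the deposited value table most dim probes were empty by an unknown rule, and it served as an alternative.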

Additional observations from a re-analysis of the deposited data

How the results depend on the processing

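The differences of the 4 tested member probes kept their sign under all 17 alternatives; 5 of these leave a probe's value fixed by construction, and 12 can move it. The 676 calls over the whole table and the 8 in the osteoblast lists became 4512 and 36 with 10 files as separate arrays. They became 1459 and 15 with scan blocked and position random. Without a filter on dim probes they became 17 and 0, where 34474 genes were tested. Bglap2 was the 1 member called there, from which nothing is read, since the same contrast chose the members. Without mimic array 1, 2 or 3 or scramble array 1, the table gave 47, 79, 138 and 4352 calls and the lists 1, 1, 2 and 35. The fit without scramble array 1 left a lone scramble array, with no spread of its own, so nothing is read from its calls. The share of lower calls was 45.6% in the main analysis. It was 31.8% with the percentile over all probes, 36.8% with quantile normalization and 37.0% in the deposited value table. It was 35.3% without a filter on dim probes and 36.2% without mimic array 1. It was 56.3% with 10 files as separate arrays, 55.3% with the replicate block and 51.7% with scan blocked. With the percentile over all probes the median over all genes was 0.11 instead of -0.05. The replicate numbers did not pair the samples: correlations of deviations for numbers 1 to 4 were 0.38, -0.04, -0.35 and -0.10, and 1 of 4 numbers correlated best with its own. With the replicate block 1950 genes were called, 16 of them in the lists. The Bglap2 probe was at 2.52 there and Spp1 at -1.05. Signs reversed, for a cause that was not tested, as follows. Ephb4 was 0.029 with the replicate block, 0.0098 in the second scan, 0.0072 with normexp, 0.14 with the percentile over all probes, 0.081 with quantile normalization, 0.072 in the deposited table, and 0.0049 and 0.34 without mimic array 2 and scramble array 2. Pmf1 was 0.019 with normexp and 0.091 with the percentile over all probes, Csf1 0.16 with the mean of its probes and Pdgfra 1.28 in the deposited table. Acan was 0.026 with the replicate block, 0.12 in the first scan, 0.10 with the percentile over all probes, 0.13 with quantile normalization, 0.12 in the deposited table, and 0.083 and 0.080 without mimic array 2 and scramble array 1. Lmna was 0.0049 with the replicate block, 0.011 in the first scan, 0.16 with that percentile, 0.084 with quantile normalization, 0.081 in the deposited table, and 0.071, 0.027 and 0.18 without mimic arrays 1 and 2 and scramble array 2. S100a4 was 0.014, 0.027 and 0.011 with that percentile, quantile normalization and the deposited table, and Itgam 0.0082 with that percentile. Without scramble array 2, Pkd2 was -0.040, Csf1r 0.15, Glmp 0.021 and Lum -0.50, and without scramble array 1 Cd14 was -0.053. Dim probes limit what can be said of Runx2, Sp7, Alpl and Ibsp.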
